A study of Homo sapiens with 4 samples.

Results

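DDIT3 (CHOP), ATF3, ATF4, ATF5, PPP1R15A (GADD34), TRIB3, CEBPB, DDIT4 (REDD1), SESN2 and CREBRF are regulators of the cellular stress response, most of them known from endoplasmic reticulum (ER) stress. They were chosen by name, with earlier results of these data known. These 10 genes were found, with 1 probe each, among the 14257 genes of the array. CREBRF was filed under the older name LOC153222 and was matched through its transcript accession. The arrays compared K562 cells, a human erythroleukemia line, treated for 4 h with the thalidomide analog AC-1041, with control K562 cells of the same duration. The labels call the control untreated and give no dose, while the study's methods name the solvent DMSO for the control cells of the expression measurements. Each of the 4 two-colour arrays held RNA of treated cells beside RNA of control cells, with the treated RNA in Cy5 on arrays 1 and 2 and in Cy3 on arrays 3 and 4. No source used here says which cultures went on which array, so the p-values measure the spread between these arrays, which may be technical.

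In the integrated stress response, kinases such as PERK (EIF2AK3) phosphorylate the translation factor eIF2. General translation then falls while the ATF4 mRNA is translated better, and ATF4 activates genes of amino acid supply together with DDIT3, ATF3 and TRIB3. PPP1R15A brings a phosphatase to eIF2 and closes the loop. ER stress also activates IRE1, which splices the XBP1 mRNA, and ATF6, a membrane-bound factor that is cut free. A microarray measures mRNA and sees neither the phosphorylation of eIF2 nor the translation of ATF4.

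Stretches before the annotated start of 6 of these genes are shown with the letters of the motifs searched that they hold. For SESN2, DDIT4 and CREBRF this is CCAAT alone (ATTGG on the other strand), which 39.7% of all genes with a window hold. The sequences and starts are those of RefSeq on GRCh38.p14, read 5′ to 3′ on the strand of the gene. For DDIT3, chr12:57520575-57520764 on the minus strand, capitals mark the AP-1 letters TGACTCA at bases -241 to -235 and CCAAT in both orientations. Where a gene had several starts, the start with the most of the marked motifs is shown. For ATF3, chr1:212565207-212565406 on the plus strand, capitals mark the C/EBP-ATF letters TGATGGAA at bases -191 to -184, and ATTGG. Both were found at 1 of its 2 starts. For PPP1R15A, chr19:48872231-48872380 on the plus strand, capitals mark the cyclic AMP element TGACGTCA at bases -58 to -51 and 2 matches to the antioxidant element. SESN2 (chr1:28259358-28259447, plus), DDIT4 (chr10:72273804-72273863, plus) and CREBRF (chr5:173056242-173056301, plus) are shown for a pair of ATTGG boxes each.
DDIT3: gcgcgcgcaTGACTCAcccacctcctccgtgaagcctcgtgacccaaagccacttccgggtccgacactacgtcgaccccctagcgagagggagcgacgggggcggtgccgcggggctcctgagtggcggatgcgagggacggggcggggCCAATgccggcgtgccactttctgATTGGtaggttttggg
ATF3: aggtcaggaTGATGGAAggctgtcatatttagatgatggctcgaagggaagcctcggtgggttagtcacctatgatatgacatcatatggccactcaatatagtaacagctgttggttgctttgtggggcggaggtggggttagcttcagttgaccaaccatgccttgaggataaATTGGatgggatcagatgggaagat
PPP1R15A: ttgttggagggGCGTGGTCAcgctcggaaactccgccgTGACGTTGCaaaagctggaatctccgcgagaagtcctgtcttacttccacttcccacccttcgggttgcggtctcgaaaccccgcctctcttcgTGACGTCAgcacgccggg
SESN2: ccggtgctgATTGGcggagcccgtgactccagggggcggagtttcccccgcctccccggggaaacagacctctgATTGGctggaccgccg
DDIT4: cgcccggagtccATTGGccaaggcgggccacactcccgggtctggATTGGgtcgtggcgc
CREBRF: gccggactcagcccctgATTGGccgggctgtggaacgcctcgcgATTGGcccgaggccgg

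The windows searched ran from 250 bases before to 50 bases after each start, on both strands, and a gene counted when any of its annotated starts had a match. CCAAT was found in 6 of the 10 genes (DDIT3, ATF3, CEBPB, DDIT4, SESN2 and CREBRF), against 39.7% of 27305 genes with a window. The C/EBP-ATF letters TGATGNAA were found in ATF3 alone, at 1 of its 2 starts, against 4.46% of genes. TGACGTCA was found in PPP1R15A alone, against 2.25% of genes. The AP-1 letters TGANTCA were found in DDIT3 and in ATF5 (at 1 of its 3 starts), against 9.37% of genes. The antioxidant letters TGACNNNGC were found in PPP1R15A, TRIB3 and CEBPB (at 1 of its 2 starts), against 16.1% of genes. No window of the 10 genes held TGACGCAA, the heat shock element or either ER stress element (ERSE, whose letters include CCAAT, and ERSE-II). These matches describe letters in short windows, and elements further from the start or inside the gene were not searched. Only exact matches counted, so the absence of both ER stress elements holds for their full letters alone. The DDIT3 stretch shown holds a form of ERSE on each strand that starts at a box in capitals and differs in 1 letter. Such near matches were not counted for any gene, and whether they act was not tested.

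The probes on the array are 60 bases long. Those of ATF3, ATF4 and PPP1R15A are shown as the probes behind a factor with one of the largest ratios and behind a pair of regulators with ratios under 2-fold. By the positions in the files (hg18), the ATF3 probe lies at chr1:210859460-210859519 and the ATF4 probe at chr22:38247821-38247880. The ends of the PPP1R15A probe are 775 bases apart, at chr19:54069939-54070713, so the probe joins separate stretches of the genome.
ATF3 probe: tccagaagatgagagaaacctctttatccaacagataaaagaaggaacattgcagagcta
ATF4 probe: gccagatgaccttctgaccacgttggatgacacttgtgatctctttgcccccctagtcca
PPP1R15A probe: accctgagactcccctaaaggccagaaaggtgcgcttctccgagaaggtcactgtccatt

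Of 14297 gene probes, 8852 could be tested, and 10 of 11 markers of K562 cells on the array, GATA1 and KLF1 among them, were well above background in control cells on all 4 arrays. Of 7 lymphoid markers 3 were so as well, of 6 epithelial markers 3, and no fibroblast marker. Arrays 1 and 2 were noisier than arrays 3 and 4, with a standard deviation of negative control spots between 226 and 308 against 27.8 to 40.5 intensity units. The treated over control log2 ratios of all probes correlated within a dye orientation (r = 0.807 for arrays 1 and 2, r = 0.944 for arrays 3 and 4) and ran slightly opposite between orientations (r from -0.288 to -0.116). The dye therefore entered the fit as a term of its own. Since the noisier arrays share an orientation, the dye and the quality of an array cannot be told apart.

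AC-1041 raised the mRNA of 7 of the 8 testable regulators. CREBRF and ATF3 rose more than 4-fold, DDIT3 more than 3-fold, TRIB3 and SESN2 more than 2-fold, and PPP1R15A and ATF4 less than 2-fold, while ATF5 did not pass the test. An increase passed the threshold (limma, adjusted p under 0.05, treatment and dye terms) at 24.3% of all tested probes and a decrease at 13.0%. A called increase of at least 2-fold was found for 5 of the 8 regulators, against 1.46% of all probes. The log2 ratio was above 0 on all 4 arrays for 7 of the 8, against 15.1% of all probes. For the same 7 genes all 4 treated levels lay above all 4 control levels, which held at 6.59% of all probes. The 8 genes had a median log2 ratio of 1.30, and all probes together one of 0.02. The study itself named ATF3, DDIT3, PPP1R15A, TRIB3 and CREBRF (as LCRF) among the genes induced on these arrays. It also reported increases of ATF3, DDIT3 and CREBRF in treated K562 cells by quantitative PCR. The regulators were chosen with such results known, so these shares describe them and are no independent support. CEBPB and DDIT4 could not be tested, because several of their spots carried the scanner software's mark for an uneven or outlying spot.

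**Figure D1:**
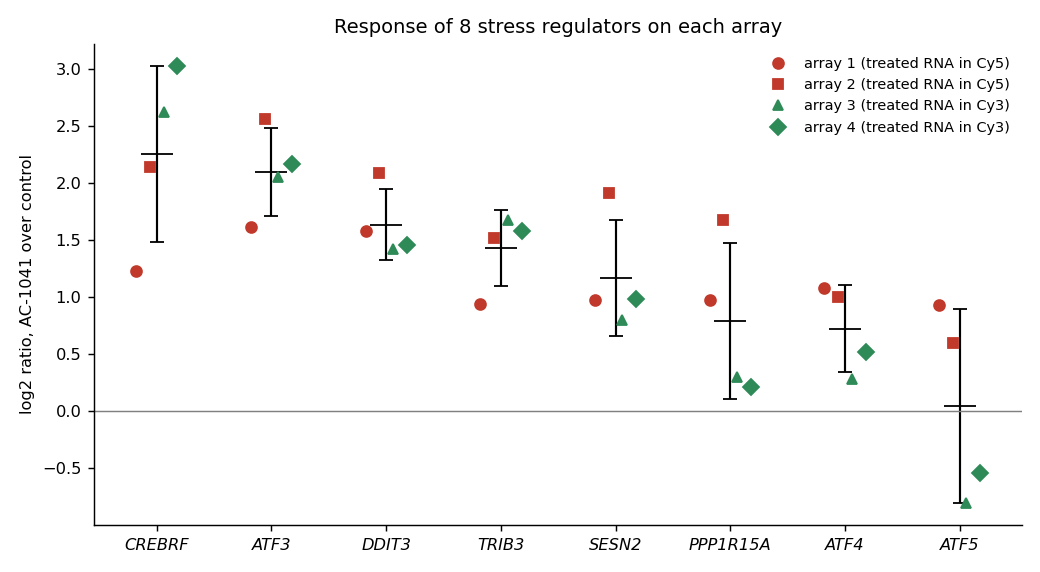
Log2 ratio of AC-1041-treated over control K562 cells (vertical axis) for the 8 testable regulators on each of 4 arrays; symbols are arrays, colours the dye of the treated RNA, and the horizontal bar with whiskers is the mean ± SD over 4 arrays. All arrays lie above 0 for every gene but ATF5, whose ratios are above 0 on arrays 1 and 2 and below 0 on arrays 3 and 4.

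DDIT3 encodes CHOP, a C/EBP-family factor known for driving cell death under prolonged ER stress. Its log2 ratio was 1.58, 2.09, 1.42 and 1.46 on arrays 1 to 4. Its normalized intensity ran from 27450 to 44077 in treated cells and from 8990 to 16075 in control cells, so the groups did not overlap. The mean log2 ratio of 1.64 ± 0.31 (SD, n = 4), a 3.11-fold increase, passed the test with a standard error of 0.089 and an adjusted p of 1.2e-05 (limma). By size it was rank 19 of all tested probes.

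ATF3, a factor induced by many kinds of stress, had a larger mean log2 ratio than DDIT3. With 4 arrays the exact sign-flip test of this difference cannot give a p under 0.125, so it decides nothing. The log2 ratio of ATF3 was 1.61, 2.56, 2.05 and 2.17 on arrays 1 to 4. Every array showed at least a 3-fold increase, array 2 the highest. The mean was 2.10 ± 0.39 (SD, n = 4), or 4.28-fold, with an adjusted p of 2.2e-05 (limma). Its mean was nearly the same with the treated RNA in Cy5 (2.09) and in Cy3 (2.11). In control cells the ATF3 probe was well above background on 3 of 4 arrays, and in treated cells on all 4.

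ATF4 is the factor whose translation eIF2 phosphorylation favours. Its log2 ratio was 1.08, 1.002, 0.28 and 0.52 on arrays 1 to 4, above 0 throughout but smaller on the arrays with treated RNA in Cy3. The mean of 0.72 ± 0.38 (SD, n = 4), or 1.65-fold, had an adjusted p of 0.00016 (limma) with the dye term, whose own adjusted p was 0.0049. Without a dye term the increase missed the threshold (limma, adjusted p = 0.142).

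ATF5, a relative of ATF4 that is likewise controlled at translation, gave log2 ratios of 0.93, 0.60, -0.81 and -0.54 on arrays 1 to 4. Its sign followed the dye orientation, and treated and control levels overlapped. The mean was 0.04 ± 0.85 (SD, n = 4), with a 95% interval of the fit from -0.14 to 0.23 and an adjusted p of 0.699 (limma). The dye term of ATF5 passed its test (limma, adjusted p = 0.00019). A miss of the threshold does not show that ATF5 was the same in both conditions.

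CEBPB, a C/EBP factor that pairs with CHOP and ATF4, had 3 of 4 spots marked. The unmarked spot, on array 1, gave a log2 ratio of 1.06. With the marked spots kept, the ratios were 0.69, 0.96, -0.48 and -0.48 on arrays 1 to 4, again with a sign that followed the dye, and the mean of 0.17 did not pass the test (limma, adjusted p = 0.108).

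CREBRF binds CREB3, an ER-membrane factor related to ATF6, and is known to restrain it. It had the largest mean of the 8 genes and was rank 4 of all tested probes by log2 ratio. Its log2 ratio was 1.23, 2.14, 2.62 and 3.03 on arrays 1 to 4, lowest on array 1 and highest on array 4. The mean was 2.26 ± 0.77 (SD, n = 4), or 4.78-fold, with an adjusted p of 2.0e-05 (limma) and a dye term that also passed (limma, adjusted p = 0.0077). With the scanner software's processed signals the mean was 2.93, also in the deposited table of ratios, more than 1.5 times this fold. In control cells the probe was well above background on 2 of 4 arrays, arrays 3 and 4. Its control intensity before normalization was lower there (295 and 362) than on the noisier arrays 1 and 2 (592 and 625). The ratio thus rests on a dim control signal on every array, and on arrays 1 and 2 on one not well above background. Without a dye term it missed the threshold (limma, adjusted p = 0.055).

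**Figure D2:**
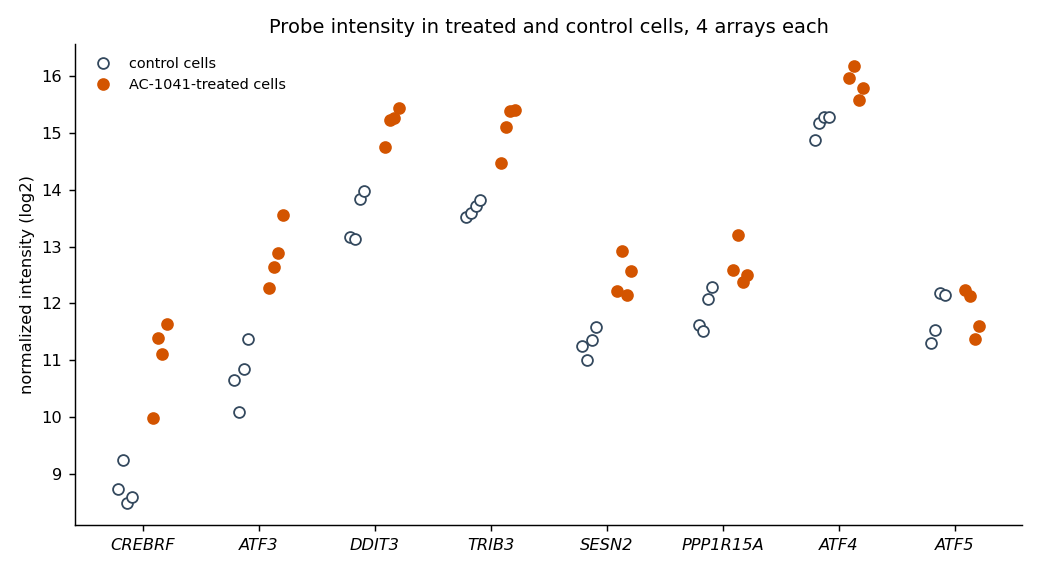
Normalized probe intensity on the log2 scale (vertical axis) of the 8 testable regulators in control cells (open circles) and AC-1041-treated cells (filled circles), 1 point per array in array order from left to right. Treated and control points overlap for ATF5 and for no other of the 8 genes, and levels of different genes are not comparable since each comes from its own probe.

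TRIB3, a pseudokinase that is a target of ATF4 and CHOP and inhibits AKT, gave log2 ratios of 0.94, 1.52, 1.67 and 1.58 on arrays 1 to 4. Array 1 was the lowest, and the other 3 arrays lay close together. The mean was 1.43 ± 0.33 (SD, n = 4), or 2.69-fold, with an adjusted p of 2.7e-05 (limma). DDIT3, ATF3 and TRIB3 were the 3 of 8 genes that also passed in a fit without a dye term (limma, adjusted p of 0.027, 0.027 and 0.036), in which 0.582% of all probes passed as increased.

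PPP1R15A encodes GADD34, which returns eIF2 to its unphosphorylated state. Its log2 ratio was 0.97, 1.68, 0.30 and 0.21 on arrays 1 to 4. All were above 0, and both arrays with treated RNA in Cy5 exceeded both with treated RNA in Cy3. The mean was 0.79 ± 0.68 (SD, n = 4), or 1.73-fold, with an adjusted p of 0.00079 (limma) and a dye term with an adjusted p of 0.0031. Without a dye term the increase missed the threshold (limma, adjusted p = 0.273).

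SESN2 and DDIT4 are stress-induced inhibitors of the growth regulator mTORC1. SESN2 gave log2 ratios of 0.97, 1.91, 0.79 and 0.98 on arrays 1 to 4, with array 2 apart from the other 3. Its mean of 1.16 ± 0.51 (SD, n = 4), or 2.24-fold, had an adjusted p of 0.00034 (limma), and 0.079 without a dye term. DDIT4 had unmarked spots on arrays 2 and 4 only, with log2 ratios of 1.78 and 0.70. With its marked spots kept, the ratios were 0.71, 1.74, 0.52 and 0.75 on arrays 1 to 4, all above 0, and the mean of 0.93 ± 0.55 (SD, n = 4) passed the test (limma, adjusted p = 0.0053). From the unmarked spots alone, fitted without a dye term, the DDIT4 mean of 1.24 missed the threshold (limma, adjusted p = 0.261).

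The dye term passed its test for 4 of the 8 genes (ATF4, ATF5, PPP1R15A and CREBRF), against 58.2% of all probes. For ATF4, ATF5 and PPP1R15A the ratio was larger with the treated RNA in Cy5, and for CREBRF with the treated RNA in Cy3. In PPP1R15A the mean log2 ratio was 1.33 in the Cy5 orientation and 0.25 in the Cy3 orientation. In CREBRF it was 1.69 and 2.82.

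**Figure D3:**
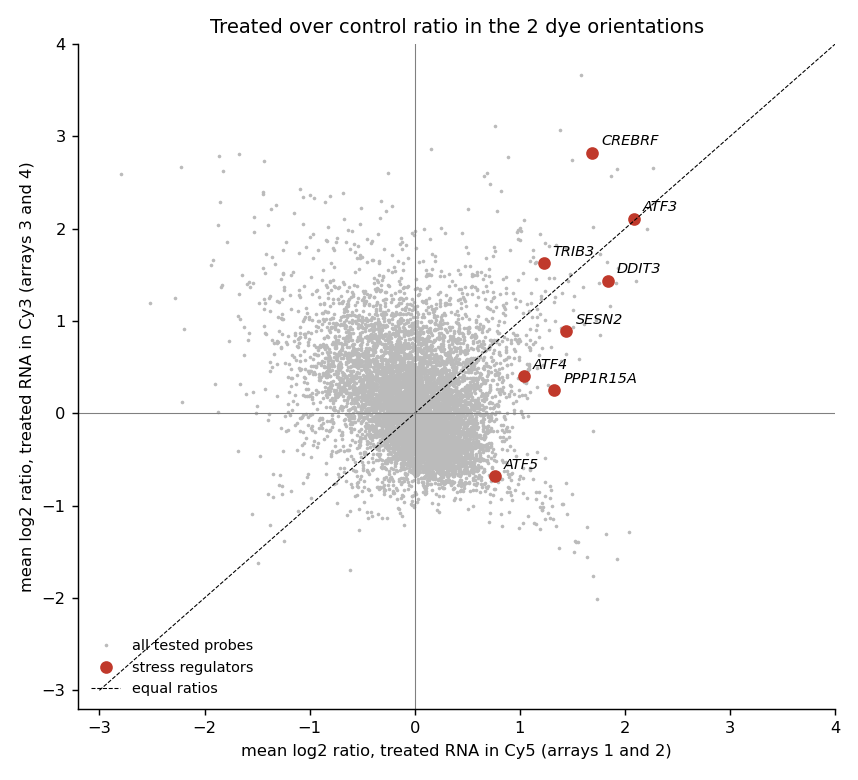
Mean log2 ratio of treated over control cells with the treated RNA in Cy5 (horizontal axis, arrays 1 and 2) against that with the treated RNA in Cy3 (vertical axis, arrays 3 and 4); grey points are all tested probes, red points the 8 regulators, and the dashed line marks equal ratios. Of the 8 regulators 7 lie in the upper right quadrant, ATF3 on the line, and ATF5 lies in the lower right quadrant.

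In order of their mean log2 ratio the genes ran CREBRF, ATF3, DDIT3, TRIB3, SESN2, PPP1R15A, ATF4 and ATF5. Of the 7 pairs of neighbours in this order, 2 differed in the same direction on all 4 arrays. ATF3 exceeded DDIT3 by 0.46 ± 0.30 and ATF4 exceeded ATF5 by 0.68 ± 0.48 (log2, mean ± SD, n = 4 arrays), each with a two-sided exact sign-flip p of 0.125, the smallest that 4 arrays allow, and 0.438 after adjustment over the 7 pairs. SESN2 exceeded PPP1R15A on 3 of 4 arrays, by 0.37 ± 0.33. The other 4 pairs differed by less than their spread, such as CREBRF and ATF3 with 0.16 ± 0.65.

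Among 7990 probes measured on all arrays, those whose ratios lay nearest to DDIT3 array by array were AATK, PKNOX1 and BAG3, with root mean square differences of 0.129, 0.174 and 0.184 on the log2 scale. BAG3, a co-chaperone of HSP70 proteins, gave log2 ratios of 1.71, 2.16, 1.35 and 1.79 on arrays 1 to 4. AATK, a kinase named for its rise in apoptosis, gave 1.51, 2.33, 1.36 and 1.47. PKNOX1, a homeodomain factor, gave 1.59, 2.07, 1.47 and 1.80.

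The genes around these regulators were described as 5 lists by their counts and medians. Of 45 tested targets of ATF4 and CHOP, 35 rose and none fell (limma, adjusted p under 0.05; 2 were lower at an unadjusted p under 0.05), with a median log2 ratio of 0.47, where 24.3% of all probes rose and 13.0% fell. Without array 3 the count was 22, without array 4 it was 18, and without a dye term it was 3. Of the 35, 28 were above 0 on every array measured. SLC7A11, the cystine carrier, had the largest log2 ratio at 2.62 ± 1.21 (SD, n = 4), with 1.72 and 1.44 on arrays 1 and 2 and 3.70 and 3.63 on arrays 3 and 4. CTH, which makes cysteine, rose by 2.46 ± 0.40 and GDF15, a stress cytokine, by 1.74 ± 0.49. CEBPG, a partner of ATF4, rose by 1.49 ± 0.14 and CCPG1, a receptor for autophagy of the ER, by 1.14 ± 0.50. The adjusted p (limma) of these 5 genes ran from 1.2e-06 to 0.00013. Of 52 listed targets 7 could not be tested, ASNS among them, which was not well above background in either channel on any array.

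Upstream, 4 of 16 genes of the eIF2 kinases, eIF2 subunits, exchange factor and phosphatases were called higher and none lower (limma; 1 was lower at an unadjusted p under 0.05), with a median of -0.002. A share of 4 in 16 higher is close to the 24.3% of all probes and is no result about this group. Without array 3 or without array 4, 2 of the 16 rose, and without a dye term none was called in either direction (1 higher and 0 lower at an unadjusted p under 0.05). PPP1R15B, the constitutive counterpart of PPP1R15A, rose on all 4 arrays, by 0.58 ± 0.27 (SD, n = 4), with an adjusted p of 0.00032 (limma). EIF2AK3 had a called mean of 0.67 ± 0.78, but its ratios were -0.05 and 0.05 on arrays 1 and 2 and 1.37 and 1.32 on arrays 3 and 4. EIF2S2 (0.31 ± 1.23) and EIF2AK4 (0.22 ± 0.52), the GCN2 kinase, were called with ratios below 0 on arrays 1 and 2. EIF2AK1 gave -0.10 ± 0.08 and EIF2AK2, the kinase PKR, -0.02 ± 0.10, neither past the threshold.

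Among 25 tested relatives of the regulators (other ATF, CREB, C/EBP, tribbles and sestrin genes), 9 were called higher and 3 lower, with a median of 0.07. The shares over all probes were 24.3% and 13.0%. The lists overlap, since CEBPG and JDP2 also count among the targets of ATF4 and CHOP. ATF6 and ATF6B also count in the IRE1 and ATF6 branches. Of the 9 called higher, 7 were above 0 on every array measured. Without a dye term 2 rose. CEBPG rose most (above), then NFIL3, a repressor of the same leucine zipper class, by 1.31 ± 0.22 (SD, n = 4) and JDP2, a partner of ATF3-like factors, by 0.90 ± 0.27. CEBPE rose by 0.69 ± 0.35. TRIB2, the relative of TRIB3, fell on all 4 arrays, with a mean log2 ratio of -0.74 ± 0.38 (limma, adjusted p = 0.00012).

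In the IRE1 and ATF6 branches, 7 of 24 tested genes were called higher and 1 lower, with a median of 0.03, and the share called higher is near the 24.3% of all probes (13.0% were lower). Without array 3 or without array 4, 4 rose, and without a dye term 2 rose. HERPUD1, which serves ER-associated degradation, rose by 2.28 ± 0.43 (SD, n = 4; limma, adjusted p = 1.2e-06), with 1.87, 1.97, 2.58 and 2.72 on arrays 1 to 4. DNAJB9, an ER co-chaperone, rose by 1.21 ± 0.12 and XBP1 by 0.48 ± 0.09. DERL1 fell, with -0.41 ± 0.15. HSPA5, the main ER chaperone, had a called mean of 0.30 ± 0.62 with ratios of -0.27 and -0.20 on arrays 1 and 2 and 0.76 and 0.90 on arrays 3 and 4. SEL1L, 1 of the 7, was well above background in control cells on 1 array and in treated cells on 2, so it was kept through its treated signal and its call (0.38 ± 0.57, with -0.25 on array 1) supports nothing. ATF6 (0.15 ± 0.20) was not called.

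Around mTORC1, where DDIT4 and SESN2 act, 4 of 15 tested genes were called higher and 1 lower, with a median of 0.06, and the share called higher is near the 24.3% of all probes (13.0% were lower). Without a dye term no gene passed (3 higher and 0 lower at an unadjusted p under 0.05). RRAGC, a GTPase of amino acid sensing, gave 0.71 ± 0.42 (SD, n = 4) and ULK1, an autophagy kinase, 0.60 ± 0.24, both above 0 on all arrays and called. RRAGD, also among the 4, was not well above background in control cells on any array and was so in treated cells on 2, so it was kept through its treated signal alone and its call supports nothing. Its treated mean was 1.05-fold of a floor, a value with no test. The floor was the lowest signal well above background on each array, or the probe's own control signal where that was higher. Since the treated mean includes arrays where the probe was not well above background, no rise is read from it. TSC1 was called at 0.54 ± 1.04, with -0.69 on array 1 and 1.52 on array 3, and NPRL2 at -0.21 ± 0.19.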

How the data were processed

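Gene expression was measured on 4 two-colour Agilent arrays, with the dyes swapped on arrays 3 and 4. The authors deposited the intensity of each spot and its background as read by Feature Extraction 9.5.1.1, without normalization, along with processed intensities and a table of log10 ratios, which read treated over control. Background was corrected with normexp (offset 50), control spots were removed, and each array was normalized by loess (span 0.3). Marked spots were left out (1.57% to 8.08% of probes per array). A probe was fitted if either channel stood well above background on 2 or more arrays, with limma 3.58.1 (R 4.3.3), with treatment and dye terms and Benjamini-Hochberg adjustment over all probes. With both terms, standard errors rest on differences between arrays of the same dye orientation, whereas each SD covers the 4 arrays together. Levels per channel were scaled with Aquantile. Genes were named through RefSeq (12002 of 14297 probes), and the brightest probe stood for a gene that had several. On simulated ratios for the 8852 probes, the fit recovered 88% of 200 probes given a change of 1 (log2), and 4.35% of its calls were false. The simulation gave a probe independent noise of the same size on all 4 arrays. Arrays 1 and 2 were noisier than arrays 3 and 4, so these shares need not hold for the data. The number of arrays limits the precision. Slide and scan date were shared by all arrays. Named were the 10 regulators, the 5 largest called changes of each list, the eIF2 kinases, PPP1R15B, XBP1, HSPA5 and ATF6, and the 3 probes nearest to DDIT3. ASNS was named after its values were seen. The regulators and lists were chosen with earlier results of these data known. Alternatives were no background subtraction, processed signals, median centring, the table of log10 ratios, other filters, marked spots kept, no dye term, an intensity-dependent prior, a stricter threshold and each array left out. Proteins of the regulators were not analysed here.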

Additional observations from a re-analysis of the deposited data

Results flagged for a closer look

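SESN2 stood apart on array 2. Its log2 ratio there was 1.91, against 0.79 to 0.98 on the other 3 arrays, and the gap to the nearest array was 0.836 of the whole range, past Dixon's critical value for 4 values. This was 1 of 35 genes checked in this way, and chance alone passes the limit in about 1 of 20 groups. Without array 2 the log2 ratio of SESN2 was 0.93. That fit left array 1 alone in its dye orientation and took its spread from arrays 3 and 4, so a call from it is no check.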

How the results depend on the processing

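The 8 testable regulators gave 110 results over 14 alternatives, of which 102 kept their direction and their side of the threshold. With every array required to be well above background in both dyes, CREBRF and ATF3, the largest increases, could not be tested, 5 of 6 regulators were higher and their median was 0.98. CREBRF was 2.93 with processed signals and with the table of log10 ratios. The sign of ATF5 turned with processed signals (-0.033), with the table of log10 ratios (-0.032) and without array 1 or array 4, and ATF5 ran from -0.039 to 0.13 with an array left out. Without the dye term ATF4 (0.72), PPP1R15A (0.79), SESN2 (1.16) and CREBRF (2.26) lost their calls, and 3 regulators were called higher. With each array left out in turn, 7 regulators were higher every time, while the dye term passed for 3 to 7 of them, 7 without array 1. Each fit with an array left out had an array alone in its dye orientation, so its calls rest on the spread of the other pair. The number of probes called higher and lower was 52 and 4 without the dye term and 1354 and 468 at an adjusted p under 0.01. It was 596 lower with median centring and 1342 higher where every array had to be well above background in both dyes. Leaving out an array gave 1010 to 2590 higher and 283 to 1469 lower, with 1244 and 444 without array 3 and the fewest without array 4.

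For the lists, leaving out an array gave 18 to 35 higher and 0 to 1 lower targets of ATF4 and CHOP, 2 to 4 higher and 0 to 1 lower eIF2 genes, 7 to 12 higher and 1 to 4 lower relatives of the regulators, 4 to 10 higher and 1 to 4 lower genes of the IRE1 and ATF6 branches, and 3 to 5 higher and 0 to 2 lower mTORC1 genes. Without the dye term the counts higher and lower were 3 and 0 for targets of ATF4 and CHOP, 0 and 0 for eIF2 genes, 2 and 0 for relatives, 2 and 0 for the IRE1 and ATF6 branches, and 0 and 0 around mTORC1. With processed signals and with the table of log10 ratios, 1 eIF2 gene was lower and the IRE1 and ATF6 branches had 4 higher and 3 lower. With median centring 1 eIF2 gene, 1 relative, 2 genes of the IRE1 and ATF6 branches and 0 mTORC1 genes were lower. With the filter on both dyes, 2 eIF2 genes, 5 relatives and 2 mTORC1 genes were higher, and 4 genes of the IRE1 and ATF6 branches and 2 around mTORC1 were lower. In the IRE1 and ATF6 branches 2 genes were lower without background subtraction and 3 with the intensity-dependent prior. Around mTORC1, 0 genes were lower with no filter, with marked spots kept and at an adjusted p under 0.01, where 1 relative was lower. The cause of these shifts was not tested. Restricting the motif search to 250 bases before the start left the antioxidant letters in 2 regulators and changed no other motif's count. The arrays limit the precision, with CREBRF near background in control cells.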
